A study of Homo sapiens with 4 samples.

Results

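The genes described here are 40 listed targets of ATF4, a transcription factor of the amino acid and stress response. They were followed in SH-SY5Y cells, a clonal human neuroblastoma line, in which TSPAN8, a gene for a cell-surface tetraspanin, was silenced by small interfering RNA. Members were found by the gene symbol in the array's annotation, using probe sets assigned to a single gene. By this rule 39 of the 40 genes were measured, by 82 of the 54613 probe sets of the array, and they stand among 19775 named genes. MARS1, the methionyl-tRNA synthetase, is covered by probe sets that are annotated to several genes and has no value here. The list was proposed after stress genes had been seen to be lower on the arrays numbered 1 than on those numbered 2 in both groups, and lower in knockdown than in control. Both contrasts are therefore given as descriptions and support nothing.

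The study holds 4 samples, 1 array each: 2 of TSPAN8 knockdown and 2 of transfection control, all from cells grown in serum-containing DMEM/F12 medium and harvested after 72 h. Silencing used a self-delivering (Accell) reagent, and the sources used here do not say what the control cells received. The titles number the samples 1 and 2 within each group, without saying what the number marks or whether the samples were separate cultures, so a p-value here sets the group difference against a spread that may be only technical. Values are log2 signals of 3'-labelled RNA, and differences are log2 differences unless stated otherwise. In such bulk RNA, fewer cells of a type and less RNA per cell cannot be told apart.

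TSPAN8 fell after knockdown, from 7.52 and 7.62 on the control arrays to 6.25 and 6.35 on the knockdown arrays (-1.27 ± 0.062, SE; limma, adjusted p = 0.0026). With the replicate number as a block the change was the same and its adjusted p 0.16. Noradrenergic neuroblast markers, which define this line, had a median level of 11.12 over 12 measured genes, and 1 of them lay below the array median on every array. Among Schwann cell and melanocyte markers the median level was 6.66, and 3 of 7 lay below the array median throughout. The 3' minus 5' difference of ACTB, a sign of RNA degradation, was 2.00 and 2.18 on knockdown arrays 1 and 2. On control arrays 1 and 2 it was 2.14 and 1.99. For GAPDH the values were 0.56 and 0.67 in knockdown and 0.60 and 0.53 in control. Both were thus lower on number 1 in knockdown and higher on it in control. The part of RNA quality in the differences of the members was not tested.

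ATF4 is made when phosphorylation of the initiation factor eIF2 slows general translation while the ATF4 message, through its upstream reading frames, is translated more. Kinases that sense amino acid shortage, unfolded protein in the endoplasmic reticulum, double-stranded RNA or haem shortage feed into this step. ATF4 then pairs with C/EBP proteins on composite elements and raises genes that make, import and charge amino acids, together with genes that end or worsen the stress.

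The composite element was looked for in the RefSeq promoter table (GRCh38.p14), which holds windows of 300 bases, from 250 before to 50 after each annotated start. The letters searched were TGATGNAA on both strands. Of the 40 members, 32 had a window, and EIF4EBP1, VEGFA, PSPH, SHMT2, ALDH1L2, PYCR1, SLC7A11 and YARS1 are not in the table. The element was found in 12 of the 32 (37.5%, exact 95% binomial interval 21.1% to 56.3%), against 4.46% of 27305 genes with a window. ATF4 targets were in part recognised through this element, so the share describes the list and does not test it. The cyclic AMP element TGACGTCA was present in 1 member (3.13%, against 2.25% of all genes). The endoplasmic reticulum stress element (CCAAT and, 9 bases on, CCACG) was found in 0 of 32 (exact interval up to 10.9%), against 0.0916% of all genes.

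The promoters of 4 members that differed most between replicate numbers and hold the element are shown, 5' to 3' on the strand of the gene, from 250 bases before the annotated start, with the element in capitals. All 4 lie upstream of the first exon, except that the element of SLC1A4 ends on the first transcribed base. In CHAC1 and SLC1A4 the element lies on the opposite strand and so appears as its reverse complement.
CHAC1 (chr15:40953221-40953470, plus strand): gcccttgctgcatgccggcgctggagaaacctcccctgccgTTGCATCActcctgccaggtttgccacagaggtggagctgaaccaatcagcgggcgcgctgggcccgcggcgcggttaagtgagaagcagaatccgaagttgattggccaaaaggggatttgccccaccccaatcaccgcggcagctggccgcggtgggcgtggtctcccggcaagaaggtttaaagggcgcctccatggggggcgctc
SLC1A4 (chr2:64989149-64989399, plus strand): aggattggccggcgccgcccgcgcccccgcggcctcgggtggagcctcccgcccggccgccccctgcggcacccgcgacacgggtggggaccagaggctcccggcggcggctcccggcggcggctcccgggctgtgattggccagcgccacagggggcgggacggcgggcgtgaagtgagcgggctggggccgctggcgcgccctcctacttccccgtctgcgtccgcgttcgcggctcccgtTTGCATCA
CEBPG (chr19:33373863-33374112, plus strand): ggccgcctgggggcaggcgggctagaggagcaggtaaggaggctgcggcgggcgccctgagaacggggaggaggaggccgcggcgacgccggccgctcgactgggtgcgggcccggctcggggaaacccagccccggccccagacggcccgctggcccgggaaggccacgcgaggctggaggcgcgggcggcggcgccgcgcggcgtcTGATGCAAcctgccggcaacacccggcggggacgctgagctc
ATF3 (chr1:212565157-212565406, plus strand): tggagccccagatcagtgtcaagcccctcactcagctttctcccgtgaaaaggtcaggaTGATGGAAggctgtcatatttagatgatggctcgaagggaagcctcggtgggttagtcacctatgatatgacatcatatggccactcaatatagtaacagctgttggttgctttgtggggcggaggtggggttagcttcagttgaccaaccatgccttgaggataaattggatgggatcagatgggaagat

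Shorter stretches show the element in some other members, here read along its own strand with 10 bases on either side. Its fixed letters are alike because the search required them. In ASNS it starts 68 bases before the annotated start, in GARS1 it ends 26 bases before it, and in NARS1 it lies inside the transcribed part.
ASNS (chr7:97872459-97872486, minus strand): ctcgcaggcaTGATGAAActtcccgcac
GARS1 (chr7:30594835-30594862, minus strand): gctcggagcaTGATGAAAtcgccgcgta
AARS1 (chr16:70289676-70289703, plus strand): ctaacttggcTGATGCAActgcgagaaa
SLC1A5 (chr19:46784894-46784921, minus strand): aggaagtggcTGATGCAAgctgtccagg
NARS1 (chr18:57621805-57621832, minus strand): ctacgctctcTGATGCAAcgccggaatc

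The median difference between the arrays numbered 1 and 2 was -0.19 in knockdown and -0.22 in control for 11 measured members with the element, and -0.19 and -0.23 for 20 without it. Knockdown minus control had a median of -0.22 in the former and -0.14 in the latter. These differences between members with and without the element were not tested. Among the other measured genes, 545 held the element, and their medians were 0.0020 and 0.00064. A difference of at least 0.2 in both groups, with number 1 the lower, was present in 4 of those 545 (0.734%) and in 58 of 14808 other genes without the element (0.392%). Among the members it was present in 4 of 11 with the element (36.4%) and in 8 of 20 without it (40%). These shares were not tested either.

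Across the members, knockdown replicate 1 was the lowest array and control replicate 2 the highest. This order held in 33 of 39 members, against 11.8% of all 19775 genes. Knockdown replicate 1 was the lowest in 34 members (30.7% of all genes) and control replicate 2 the highest in 38 (27.7%). Relative to each gene's own mean, the median member stood at -0.19 on knockdown replicate 1, 0.012 on knockdown replicate 2, -0.032 on control replicate 1 and 0.21 on control replicate 2. Knockdown replicate 2 and control replicate 1, which differ in both treatment and number, were thus nearly alike in the median only. Single members differed between these 2 arrays in either direction. WARS1 stood at 0.31 on knockdown replicate 2 and -0.22 on control replicate 1, and CBS at -0.019 and 0.14. For all genes the medians on the 4 arrays lay between -0.0081 and 0.0076.

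**Figure D1:**
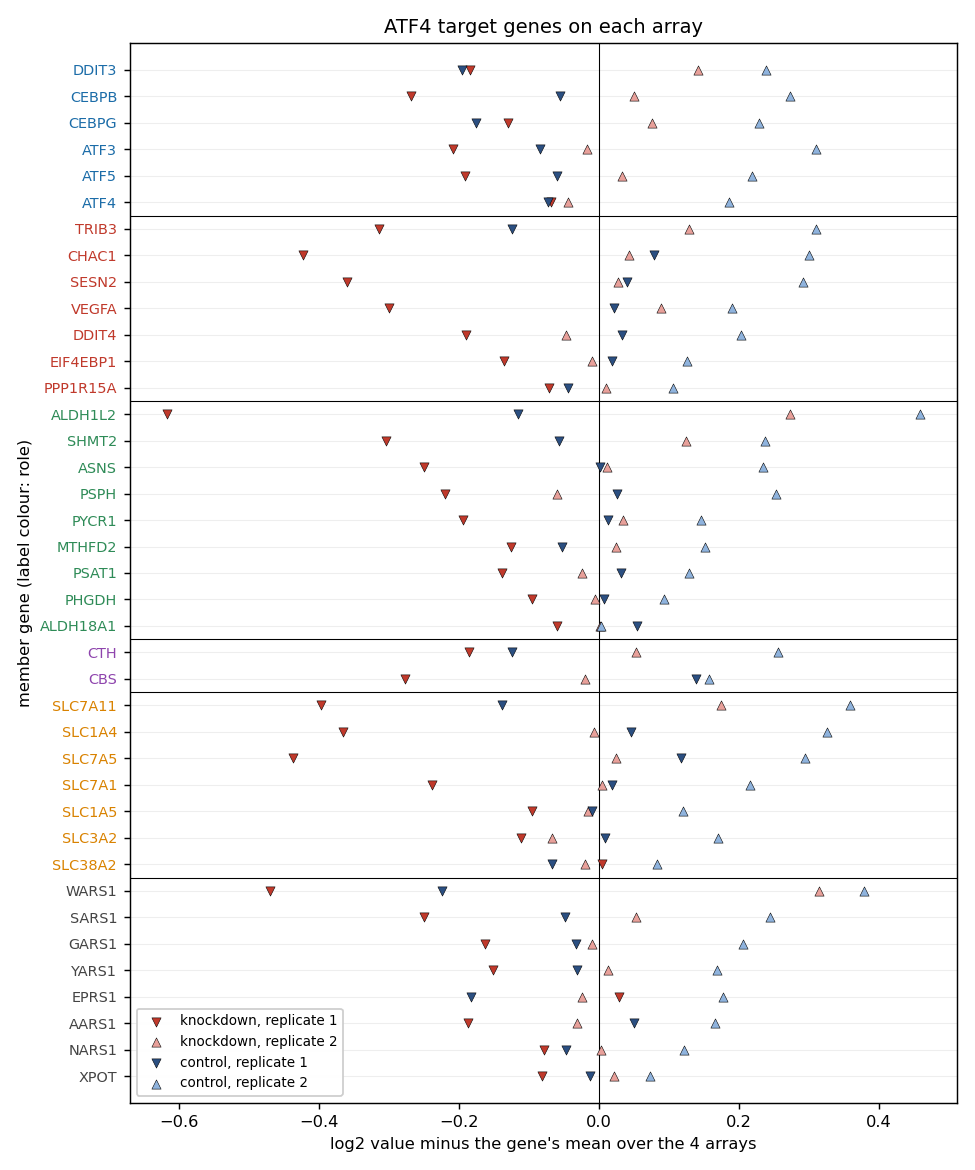
Log2 value of each of the 39 measured members on each array, minus the gene's mean over the 4 arrays, with genes grouped by role (colour of the gene name) and ordered within a role by the mean difference between replicate numbers. Red marks are knockdown and blue marks control arrays, and downward triangles are the arrays numbered 1; knockdown replicate 1 is the leftmost mark in 34 members and control replicate 2 the rightmost in 38.

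The arrays numbered 1 lay below those numbered 2 in both groups for 36 of 39 members, against 25.3% of all genes. The median member difference, number 1 minus number 2, was -0.21 in knockdown (range -0.89 to 0.052) and -0.22 in control (range -0.60 to 0.051), against 0.00055 and -0.0026 for all genes. In 15 members the difference was at least 0.2 in both groups, which is a signal of at most 87.1% of that on the array numbered 2, against 0.44% of all genes and 0.678% of the 12546 genes above the median signal. These counts restate what the list was chosen on. The remaining 3 members, singled out after their values were seen, were SLC38A2 and EPRS1, which were slightly higher on number 1 in knockdown only (0.024 and 0.052), and ALDH18A1, higher on number 1 in control only (0.051). At the probe set level, 68 of 82 lay lower on number 1 in both groups (26.1% of all probe sets), 22 of them by at least 0.2 (0.286%). The 3 that lay higher in both belong to SLC7A1, ATF3 and ALDH18A1.

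The knockdown pair and the control pair share no array, and across the 39 members their differences between numbers correlated with Pearson's r = 0.66, given as a description because genes of one array are not independent. Across all genes r was 0.13. The members were bright genes, with a median level of 10.62 against 7.22 for all genes, and among the genes above the median signal r was 0.19. In the lists described below, r was 0.67 for other reported ATF4 targets, 0.62 for genes upstream of ATF4 and 0.85 for chaperone genes. The value for the upstream genes leans on DNAJC3, at -0.67 and -0.47. All other genes of that list lay within 0.2 of 0 in both groups. For Schwann cell and melanocyte markers, only 7 genes, r was 0.58. It was 0.32 for other amino acid transporters, 0.31 for mesenchymal and 0.13 for noradrenergic markers. For other cytosolic (7 genes) and mitochondrial synthetases (14 genes) it was -0.52 and -0.072.

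**Figure D2:**
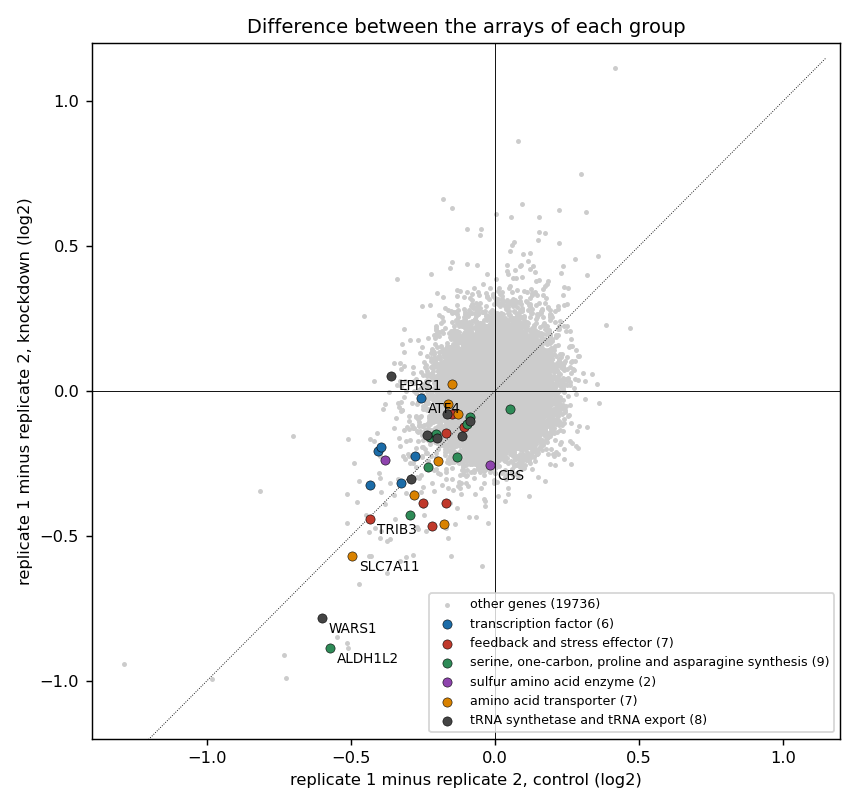
Difference between the arrays numbered 1 and 2 in control (x axis) and in knockdown (y axis), in log2 units, for 39 members coloured by role and 19736 other genes in grey; the dotted line marks equal differences. Most members lie in the lower left, with ALDH1L2 at -0.57 and -0.89 and WARS1 at -0.60 and -0.78, whereas ATF4 lies close to the horizontal axis at -0.26 and -0.025.

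Among the 6 transcription factors, all lay lower on number 1 in both groups, with a median difference of -0.22 in knockdown and -0.36 in control. ATF4 itself stood at 12.25 and 12.27 on knockdown replicates 1 and 2 and at 12.24 and 12.50 on control replicates 1 and 2. Control replicate 2 alone was high, and the other 3 arrays lay close together. ATF4 transcript is abundant in these cells (percentile 99.0 of all probe sets), and the transcript says little of a protein controlled at translation.

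DDIT3, which encodes the pro-apoptotic factor CHOP, was at 10.92 and 11.24 in knockdown and at 10.91 and 11.34 in control. Both arrays numbered 1 were low and matched each other, and knockdown minus control was -0.043 ± 0.15 (SE). CEBPB, a C/EBP factor that pairs with ATF4, was at 10.77 and 11.09 in knockdown and 10.98 and 11.31 in control. Here number 1 was lower by 0.32 and 0.33 on the log2 scale in the respective groups, and knockdown was lower within each number.

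CEBPG, the partner of ATF4 on composite elements, was at 10.10 and 10.31 in knockdown and at 10.05 and 10.46 in control. Its groups overlapped, and its second probe set also lay lower on number 1 in both groups. ATF3, a repressor induced downstream of ATF4, was at 9.01 and 9.20 in knockdown and 9.13 and 9.53 in control. Of its 3 probe sets, the dimmest lay higher on number 1 in both groups (0.14 and 0.016), at a level below the array median. ATF5, a relative of ATF4 with like translational control, was at 7.54 and 7.76 in knockdown and 7.67 and 7.95 in control, and 2 of its 4 probe sets lay lower on number 1 in both groups.

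The 7 feedback and stress effectors all had knockdown replicate 1 as the lowest and control replicate 2 as the highest array. Their median difference between numbers was -0.39 in knockdown and -0.17 in control. TRIB3, a pseudokinase that restrains ATF4, had values of 10.82 and 11.27 in knockdown and 11.01 and 11.45 in control. Its difference between numbers, -0.44 and -0.43, was nearly equal in the groups and more than its knockdown minus control difference of -0.19 ± 0.17 (SE).

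CHAC1, an enzyme that breaks down glutathione, was at 8.06 and 8.52 in knockdown and 8.56 and 8.78 in control. SESN2, a leucine-sensing inhibitor of mTORC1, was at 7.95 and 8.34 in knockdown and 8.35 and 8.60 in control. In both genes knockdown replicate 2 lay just below control replicate 1, and the groups did not overlap. VEGFA, the angiogenic growth factor, was at 10.26 and 10.65 in knockdown and 10.58 and 10.75 in control, with overlapping groups, and all 4 of its probe sets lay lower on number 1. For the other 3 effectors (DDIT4, PPP1R15A and EIF4EBP1), which restrain mTORC1, eIF2 signalling and translation, the differences between numbers ran from -0.081 to -0.17.

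The 9 genes of serine, one-carbon, proline and asparagine synthesis had median differences between numbers of -0.16 in knockdown and -0.20 in control. ALDH1L2, the mitochondrial enzyme that oxidises 10-formyltetrahydrofolate, had the largest mean difference of any member over the 2 groups, although in control WARS1 differed more. It stood at 6.99 and 7.87 in knockdown and at 7.49 and 8.06 in control, so that the array numbered 1 held 54.0% of the signal of number 2 in knockdown and 67.2% in control. Its level is modest (percentile 70.8), and its 2 other probe sets, both below the array median, differed by -0.16 and -0.029 in knockdown and by -0.28 and 0.029 in control.

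SHMT2, the mitochondrial serine hydroxymethyltransferase, was at 10.79 and 11.21 in knockdown and 11.03 and 11.33 in control. All 3 of its probe sets lay lower on number 1 in both groups and lower in knockdown than in control. ASNS, asparagine synthetase, was at 12.41 and 12.67 in knockdown and 12.66 and 12.90 in control. Its step between numbers, -0.26 and -0.23, was as large as that between the groups, -0.24 ± 0.10 (SE), and knockdown replicate 2 again lay next to control replicate 1, here with overlap.

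PHGDH, the first enzyme of serine synthesis, was at 9.62 and 9.71 in knockdown and at 9.72 and 9.81 in control, one of the smallest steps among the members. ALDH18A1, which starts proline synthesis, was at 10.02 and 10.08 in knockdown and 10.14 and 10.09 in control and showed no shared step. The other 4 members of this role, PSPH, PSAT1, MTHFD2 and PYCR1, differed between numbers by -0.097 to -0.23 in both groups. For PSAT1 this depended on the probe set: the second one, at a mean level of 9.08, differed by 0.19 in knockdown and -0.28 in control.

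The sulfur amino acid enzymes CTH and CBS make cysteine from homocysteine. CTH was at 9.29 and 9.53 in knockdown and 9.35 and 9.73 in control, a step between numbers of -0.24 and -0.38. CBS differed by -0.26 between the knockdown arrays and by -0.018 between the control arrays.

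Of the 7 amino acid transporters, 6 lay lower on number 1 in both groups, with medians of -0.24 in knockdown and -0.18 in control. SLC7A11, the cystine and glutamate exchanger, was at 8.62 and 9.19 in knockdown and 8.87 and 9.37 in control. The arrays numbered 1 held 67.3% and 70.9% of the signal of number 2, and all 3 probe sets shared the direction. SLC7A5, the large neutral amino acid transporter, was at 9.40 and 9.86 in knockdown and 9.95 and 10.13 in control. Its groups did not overlap.

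SLC1A4, a transporter of alanine, serine and cysteine, was at 8.18 and 8.54 in knockdown and 8.59 and 8.87 in control, and all 5 of its probe sets lay lower on number 1 in both groups. SLC7A1, the cationic amino acid transporter, was at 11.76 and 12.01 in knockdown and 12.02 and 12.22 in control. Its probe sets disagreed: 3 of 5 lay lower on number 1 in both groups, and a dim one lay higher in both (0.071 and 0.12).

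SLC3A2, the heavy chain that carries SLC7A5 and SLC7A11 to the membrane, was at 9.06 and 9.10 in knockdown and 9.18 and 9.34 in control, with groups that did not overlap and a small step in knockdown. SLC38A2, a neutral amino acid transporter, was at 12.76 and 12.74 in knockdown and 12.69 and 12.84 in control. None of its 3 probe sets lay lower on number 1 in both groups, and their differences in knockdown were 0.024, 0.12 and 0.13.

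The 8 measured tRNA synthetase and tRNA export genes had median differences between numbers of -0.15 in knockdown and -0.22 in control. WARS1, the tryptophanyl-tRNA synthetase, was at 10.15 and 10.94 in knockdown and 10.40 and 11.00 in control. The number separated its arrays far more than the group did: number 1 held 58.1% and 65.9% of the signal of number 2, whereas knockdown minus control was -0.15 ± 0.26 (SE). The second probe set of WARS1 gave -0.62 and -0.58 between numbers. WARS1 is also known as an interferon-induced gene.

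SARS1, the seryl-tRNA synthetase, was at 10.99 and 11.29 in knockdown and 11.19 and 11.49 in control, so that the step between numbers, -0.30 and -0.29, was the same in both groups. XPOT, the exporter of tRNA from the nucleus, was at 11.60 and 11.71 in knockdown and 11.67 and 11.76 in control. EPRS1, the glutamyl-prolyl-tRNA synthetase, was at 11.88 and 11.83 in knockdown and 11.67 and 12.03 in control, without a shared step in this brightest probe set. Its second probe set lay lower on number 1 in both groups (-0.086 and -0.078), with -0.18 for knockdown minus control. The dimmest was at 0.023 and -0.20 between numbers and at 0.17 for knockdown minus control. The other 4 synthetases (GARS1, YARS1, AARS1 and NARS1) differed between numbers by -0.081 to -0.24.

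Knockdown minus control was below 0 in 38 of 39 members, against 55.4% of all genes and 62.3% of the genes above the median signal. The median member difference was -0.17, against -0.0094 for all genes and -0.023 for the genes above the median signal. By limma over all probe sets, 0 of 82 member probe sets passed an adjusted p of 0.05, where 1 probe set of the array (0.00183%), that of TSPAN8, passed. The smallest adjusted p of a member was 0.60. At an unadjusted p under 0.05 there were 21 member probe sets, 19 of them lower, against 7.83% of all probe sets in either direction and 4.12% lower.

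The largest differences between the groups were those of SLC7A5 (-0.41 ± 0.13, SE), CHAC1 (-0.38 ± 0.14), SLC1A4 (-0.37 ± 0.13), ALDH1L2 (-0.34 ± 0.27) and SESN2 (-0.33 ± 0.13). In SLC7A5, knockdown cells held 75.2% of the control signal. With 1 array left out, SLC7A5 ran from -0.64 to -0.18, CHAC1 from -0.61 to -0.15, SLC1A4 from -0.55 to -0.19, SESN2 from -0.53 to -0.14 and ALDH1L2 from -0.79 to 0.10. The value of SLC1A4 and that of ALDH1L2 also depended on the probe set. SLC1A4 was at 0.0018 where probe sets that can bind several transcripts were left out, which leaves 1 dim probe set, and ALDH1L2 was at 0.028 with the median over its 3 probe sets and at -0.10 with their mean. Both knockdown arrays lay below both control arrays in 15 of 39 members, against 24.2% of all genes. Among the genes above the median signal, where the members mostly lie, the share was 30.3%. By role these were 5 of 7 transporters, 4 of 7 effectors, 4 of 9 synthesis enzymes, 1 of 2 sulfur enzymes, 1 of 8 in the tRNA group and 0 of 6 transcription factors.

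The size of the group difference rested on which arrays were set against each other. The median member was at -0.056 without knockdown replicate 1 and -0.054 without control replicate 2, but at -0.27 without knockdown replicate 2 and -0.30 without control replicate 1. Without knockdown replicate 2, where the lone knockdown array is assumed to vary like the controls, 27 of 82 member probe sets passed an adjusted p of 0.05 by limma, among 1026 on the whole array. Without any other array 0 members passed. Leaving out an array makes the groups unequal in replicate number, so these values hold both differences at once.

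Within a number, the members lay lower in knockdown at either number. The median was -0.17 between the arrays numbered 1, with 34 of 39 members below 0, and -0.18 between those numbered 2, with 39 of 39 below 0. Both were below 0 in 34 members, against 33.0% of all genes and 40.1% of the genes above the median signal. Each is 1 array against 1 array, without replication. The 5 members above control at number 1, singled out after their values were seen, were ATF4 (0.0042), DDIT3 (0.011), CEBPG (0.046), SLC38A2 (0.071) and EPRS1 (0.21), and at number 2 they lay at -0.23, -0.10, -0.15, -0.10 and -0.20. For EPRS1 this depended on the probe set: at number 1 the second one lay at -0.18 and the dimmest at 0.28. In 24 of 39 members the mean difference between numbers was larger in size than that between groups (45.5% of all genes), among them all 6 transcription factors and 7 of 8 in the tRNA group, but 2 of 7 transporters.

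**Figure D3:**
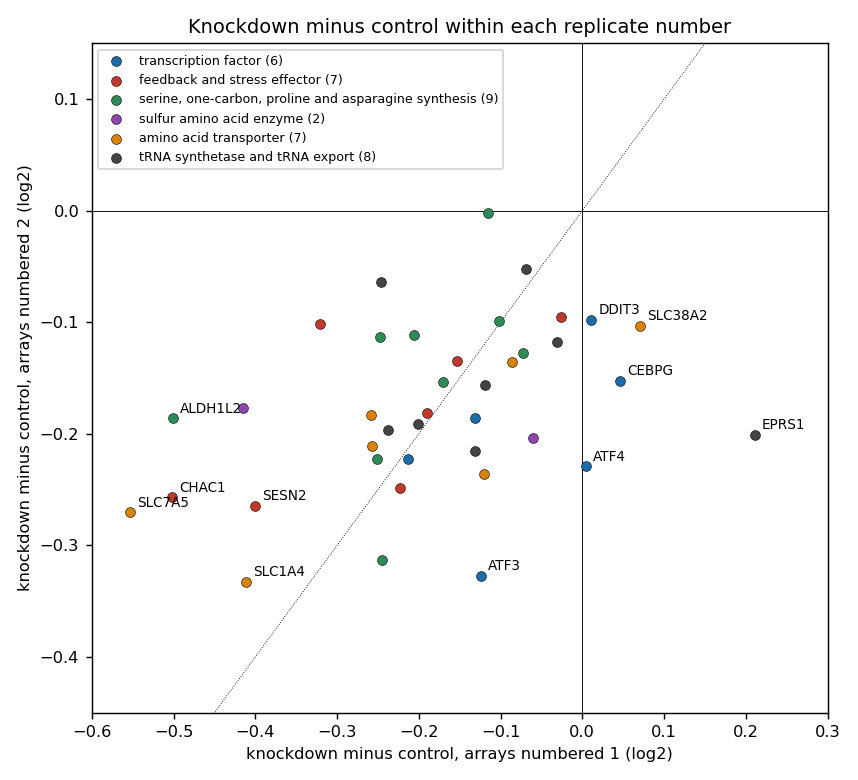
Knockdown minus control in log2 units for 39 members, between the arrays numbered 1 (x axis) and those numbered 2 (y axis), coloured by role, with the dotted line at equal values. All members lie below 0 on the y axis and 34 on the x axis, and SLC7A5, CHAC1 and ALDH1L2 lie farthest to the left, at -0.55, -0.50 and -0.50.

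Genes upstream of ATF4 did not share the step between numbers. Of 23 measured genes for the eIF2 kinases, eIF2, its exchange factor and its phosphatases, 5 lay lower on number 1 in both groups. The share over all genes was 25.3%. The medians of these 23 genes were 0.033 in knockdown and -0.016 in control. The 1 gene lower by at least 0.2 in both was DNAJC3, an inhibitor of eIF2 kinases that is itself a chaperone of the endoplasmic reticulum, at -0.67 and -0.47. The phosphatase subunit PPP1CA (0.061 and 0.13) and the haem-regulated kinase EIF2AK1 (0.12 and 0.046) lay slightly higher on number 1. Knockdown minus control was below 0 in 14 of 23 (55.4% of all genes). It was lowest at -0.22 for DNAJC3 and -0.15 for GCN1, the activator of the amino acid sensing kinase.

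Other reported ATF4 targets lay on the same side, with smaller medians. Of 30 measured, 18 lay lower on number 1 in both groups (25.3% of all genes), 4 of them by at least 0.2 (0.44%). The medians were -0.073 in knockdown and -0.10 in control. INHBE, an activin subunit, was at 7.74 and 8.65 in knockdown and 8.31 and 9.04 in control, and had the largest group difference of this list (-0.48 ± 0.30, SE). STC2, a secreted stanniocalcin, followed at -0.35 ± 0.13 (SE), with -0.40 and -0.25 between numbers. GDF15, a stress cytokine, was at -0.35 and -0.82 between numbers.

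The synthetases and transporters that are in neither list of ATF4 targets had medians near 0 between numbers. This leaves out those counted above among the other reported targets, named here after their values were seen. Of these, the synthetases CARS1 (-0.17 and -0.22), IARS1 (-0.20 and -0.17), LARS1 (-0.032 and -0.042) and TARS1 (-0.034 and -0.14) lay lower on number 1 in both groups, as did the transporters SLC38A1 (-0.14 and -0.078), SLC6A9 (-0.16 and -0.0031), SLC7A3 (-0.025 and -0.030) and SLC43A1 (-0.076 and -0.060). The transporter SLC36A4 (0.074 and -0.098) and the mitochondrial synthetase NARS2 (0.048 and 0.0063) did not. Over all genes 25.3% lay lower on number 1 in both groups, the share to set beside the next 3 counts. Among 7 other cytosolic synthetases and their cofactors, 0 lay lower on number 1 in both groups, with medians of 0.057 in knockdown and -0.030 in control. RARS1 was at 0.12 and 0.035 and VARS1 at 0.017 and 0.15. Among 14 mitochondrial synthetases, 3 lay lower in both, and VARS2 (-0.060 and -0.082), AARS2 (-0.078 and -0.039) and YARS2 (0.12 and 0.037) had the largest shared differences. Among 16 other amino acid transporters, 2 lay lower in both, with SLC7A6 at -0.076 and -0.066, SLC16A10 at 0.13 and 0.063 and SLC38A10 at 0.24 and 0.059.

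Knockdown minus control in these 3 lists had medians of -0.036, -0.054 and -0.050. It was below 0 in 6 of 7, 13 of 14 and 11 of 16 genes (all genes 55.4%, genes above the median signal 62.3%). FARSA (-0.17), VARS1 (-0.16), AARS2 (-0.10), HARS2 (-0.080), SLC38A9 (-0.22) and SLC16A10 (-0.14) had the largest values. In these lists and the other lists named here, 0 probe sets passed by limma over all probe sets. An unadjusted limma p under 0.05 was found in 7.83% of all probe sets. By list the count was 6 of 49 for the upstream genes, 10 of 61 for the other ATF4 targets and 2 of 44 for the chaperone list. For the other synthetases, the mitochondrial synthetases and the other transporters it was 3 of 14, 1 of 32 and 4 of 54. It was 4 of 25, 8 of 49 and 1 of 18 for the noradrenergic, mesenchymal and Schwann cell lists.

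The chaperone arm of the unfolded protein response, driven by ATF6 and XBP1, had larger medians between numbers than the members. All 19 measured genes lay lower on number 1 in both groups (25.3% of all genes), 15 of them by at least 0.2 (0.44%). The medians were -0.47 in knockdown and -0.37 in control. CRELD2 (-0.99 and -0.73), SDF2L1 (-0.89 and -0.51) and HYOU1 (-0.57 and -0.44), chaperones and folding factors, led the list. Knockdown minus control had a median of -0.17, the same as for the members, with SDF2L1 at -0.28 and HERPUD1, a degradation factor, at -0.25. In 0 of 19 chaperone genes did both knockdown arrays lie below both control arrays, against 15 of 39 members. Among genes above the median signal the share was 30.3%. The count was 9 of 23 for the eIF2 list, 8 of 30 for the other ATF4 targets and 7 of 16 for the other transporters. For the other cytosolic and the mitochondrial synthetases it was 3 of 7 and 8 of 14. It was 5 of 12 noradrenergic, 0 of 16 mesenchymal and 0 of 7 Schwann cell and melanocyte markers. In the opposite order, both knockdown arrays lay above both control arrays in 7 of 16 mesenchymal markers. The same held for 2 of 7 Schwann cell and melanocyte markers, 1 of 12 noradrenergic markers and 0 of 39 members. This share was 14.3% over all genes and 11.1% over the genes above the median signal. These differences were not tested.

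**Figure D4:**
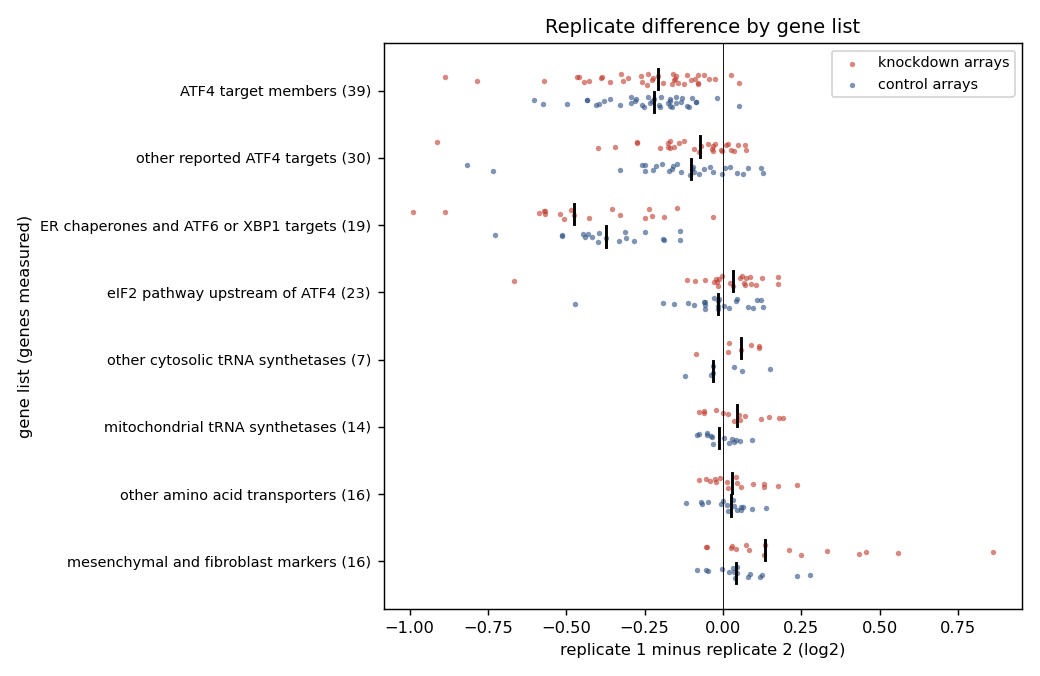
Difference between the arrays numbered 1 and 2 in log2 units for the genes of 8 lists, each point 1 gene, red for the knockdown and blue for the control arrays, with black bars at the medians. The members, the other ATF4 targets and the chaperone list lie to the left of 0, the latter with medians of -0.47 and -0.37, while the eIF2 pathway, the other synthetases and the other transporters scatter around 0.

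Ranked over all genes by the smaller of the differences in the 2 groups, 3 of the 10 genes lowest on number 1 were members (WARS1, ALDH1L2 and SLC7A11), as were 17 of the lowest 100. The non-members with the largest shared difference, lower on number 1, were NIBAN1 (-0.99 in knockdown and -0.98 in control), LAMP3 (-0.94 and -1.29), INHBE, CRELD2, the oxidase ERO1B (-0.85 and -0.55), the neurotrophin receptor NTRK2 (-0.87 and -0.51), SDF2L1 and DNAJC3. NIBAN1, a stress-responsive gene, stood at 9.02 and 10.01 in knockdown and at 9.22 and 10.21 in control. NTRK2 was the 1 gene of these 8 to lie higher in knockdown, by 0.48.

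In the opposite direction, the largest shared differences were those of MEGF10 (1.11 and 0.42), TMEM100 (0.47 and 0.36), SERTM1 (0.40 and 0.32), the matrix protein TNC (0.62 and 0.32), the differentiation inhibitor ID4 (0.75 and 0.30), the proteoglycans LUM (0.46 and 0.28) and GPC3 (0.36 and 0.26), and CSRNP3 (0.30 and 0.25). Each lay higher on number 1. At the threshold of 0.2 in both groups, 29 genes (0.147%) lay higher on number 1 and 87 lower.

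Markers of mesenchymal cells and fibroblasts lay the other way from the members. Of 16 measured, 11 lay higher on number 1 in both groups, with medians of 0.13 in knockdown and 0.041 in control. Over all genes the share higher on number 1 in both groups was 24.3%, and above the median signal 25.9%. In knockdown 13 of the 16 lay higher than in control, with a median of 0.10, where 55.4% of all genes lay lower. Their summed linear signal was 33110 and 28810 on knockdown replicates 1 and 2 and 29740 and 28420 on control replicates 1 and 2, and 3 of the 16 lay below the array median on every array. COL1A1 (0.33 and 0.24) and COL1A2 (0.13 and 0.13, at a mean level of 6.46) had the largest shared differences between numbers beside LUM. The largest group differences were those of DCN (0.50 ± 0.23, SE) and COL3A1 (0.44 ± 0.12). In DCN, knockdown minus control was 0.89 at number 1 and 0.10 at number 2, and in COL3A1 0.64 and 0.25. The part of these markers in the differences of the members was not tested. Noradrenergic markers had medians of -0.053 and -0.027 between numbers, with CHGB at -0.15 and -0.10, GATA3 at 0.17 and 0.10 and CHGA at -0.14 and -0.068; DBH (-0.35) and CHGA (-0.29) had their largest group differences. The Schwann cell and melanocyte list had medians of -0.050 and -0.019 between numbers, with MLANA at -0.14 and -0.13, MITF at 0.066 and 0.17 and TYR at -0.071 and -0.028, and group differences of at most 0.071, in S100B, followed by PMEL at 0.058.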

How the data were processed

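Total RNA of 4 SH-SY5Y samples (2 per group) was measured on 1 array each. The deposited table holds log2 values per probe set, made by the authors. The submitters' processing notes name RMA, a method of background correction, quantile normalization and probe summary, and R 3.0.1, without settings. Log2 summaries compress changes near background, and the number of arrays limits the precision. After removal of 62 AFFX controls, 54613 probe sets were tested: 41091 had 1 gene in the platform annotation, 1801 had several and were not named, and 11721 are not listed. Each gene was represented by its brightest probe set over the 4 arrays.

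The groups were compared with limma 3.58.1 (R 4.3.3; lmFit and eBayes, two-sided, Benjamini-Hochberg over all probe sets, threshold 0.05), tested on simulated data. Differences between replicate numbers are 1 array against 1 array, with no test. Members and lists were chosen with earlier results of these data known, so no list was tested as a set. Named members are ATF4, the 18 with the largest and the 5 with the smallest mean absolute difference between numbers, the 5 with the largest group difference, and those whose probe sets disagree in sign. In each other list the 3 genes with the largest shared difference between numbers and the 2 with the largest group difference are named, and over all non-members the 8 with the largest shared difference in each direction. Promoters are RefSeq windows on GRCh38.p14. Filters on dim or cross-hybridising probe sets, quantile normalization once more, centring on the median, other gene summaries, array weights, a trended variance, a replicate block and the omission of each array were tried.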

Additional observations from a re-analysis of the deposited data

How the results depend on the processing

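The median knockdown minus control difference of the members kept its sign under every alternative run, from -0.12 without probe sets that can bind several transcripts (28 genes) to -0.19 after median centring, and with 1 array left out it ran from -0.30 to -0.054. The count of members below control was 26 of 28 in the former 34 of 39 within number 1, otherwise 38 or 39 of 39, and 27 to 39 with 1 array left out. The median difference between numbers was -0.23 in knockdown and -0.16 in control after a second quantile normalization, -0.16 and -0.19 without cross-hybridising probe sets, -0.16 and -0.18 with the median and -0.16 and -0.19 with the mean over a gene's probe sets, and -0.18 in knockdown after median centring; these pairs are single arrays, so no array could be left out. Members lower on number 1 in both groups by at least 0.2 numbered 15 (0.44% of all genes), against 27 at a difference of 0.1 (2.71%) and 4 at 0.4 (0.091%). The count at 0.2 was 14 after median centring and 11 with the median or the mean over probe sets. Without cross-hybridising probe sets it was 11 of 28, and it stayed 15 after a second quantile normalization. With the replicate number as a block, 0 member probe sets passed, as without it, and 0 of all probe sets, TSPAN8 being at -1.27 with an adjusted p of 0.16. Deviations of equal numbers correlated at 0.051 over all probe sets, from 2 pairs that no label pairs. With 1 array left out, 0 to 27 member probe sets and 1 to 1026 of all probe sets passed, the highest counts without knockdown replicate 2, and TSPAN8 ran from -1.32 to -1.22. At an unadjusted p under 0.05 there were 21 member probe sets and 4278 in all. In the 150 bases before the start, TGATGNAA was in 12.5% of members and 2.37% of all genes. What causes these shifts was not tested. With 2 arrays a group, small differences between the groups cannot be resolved.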
